A study of Homo sapiens with 6 samples.

Results

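SWI/SNF and CHD remodellers, together with the enzymes that write and erase methyl groups on histones, were examined in the prostate cancer line LNCaP and in its enzalutamide-resistant derivative LNCaP-enzaR. The 38 genes were taken by symbol from the 35554 genes of the count table and comprised 15 SWI/SNF subunits, 5 CHD remodellers, 11 histone methyltransferase genes and 7 histone demethylases. LNCaP is an established human line grown from a metastasis of prostate carcinoma, and enzalutamide is an antiandrogen. Resistance had been selected by keeping LNCaP in enzalutamide, at a dose that was later reduced, and the labels do not state whether drug was present when the cells were collected. Each group was 1 line, with 3 flasks of parental LNCaP and 3 of LNCaP-enzaR labelled as biological replicates, so p-values measure the spread between flasks of 1 line and not between independently derived resistant lines.

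SWI/SNF complexes use the energy of ATP to slide or evict nucleosomes and thereby open DNA to transcription factors. They come as BAF, PBAF and non-canonical BAF assemblies, which share a core and differ in a few subunits, and several positions in the core can be filled by any 1 of a set of paralogs. CHD proteins are a separate family of ATP-driven remodellers. Histone methyltransferases mark lysines of histones H3, some marks going with active genes (lysines 4, 36 and 79) and others with silent ones (lysines 9 and 27), and demethylases of the JmjC family take methyl groups off again. Several of these proteins are known partners of the hormone receptors that drive luminal genes in the prostate.

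All 8 luminal markers were expressed in every library, among them KRT8, EPCAM and HOXB13. KLK3, the gene of prostate-specific antigen, fell (log2 fold change -3.08) but was still at 134 to 151 CPM in LNCaP-enzaR, where CPM is the count per 1000000 counts of the scaled library. Of the genes that mark other cells, PTPRC, PECAM1 and DCN had at most 5, 4 and 20 counts in any library, while COL1A1 had 12.4 to 15.1 CPM in parental cells and 4.03 to 4.80 CPM in LNCaP-enzaR and PDGFRB stayed under 2 CPM. Libraries held 77759122 to 98616465 counts. Mitochondrial genes took 6.72% to 7.06% of the counts in parental libraries and 14.7% to 15.5% in LNCaP-enzaR. Replicates of a line correlated at 0.997 to 0.998 over log2 CPM, and libraries of different lines at 0.9501 to 0.955. LNCaP-enzaR replicate 1 stood apart from its group, with a chi-square per degree of freedom of 35.6 and 28.2 against replicates 2 and 3, compared with 6.97 between those and 5.56 to 9.06 among parental libraries. Results that changed without that library are given with both values.

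All 38 genes passed the filter on low counts, at 966 to 36691 counts in a library, and 17 met both limits of the threshold used here, which were 0.05 for the adjusted p and 1.5 for the fold (edgeR quasi-likelihood F-test, Benjamini-Hochberg adjustment over 19711 genes). Of these, 7 were higher in LNCaP-enzaR and 10 were lower. The lines differed widely across the transcriptome: 42.7% of all tested genes and 44.4% of protein-coding genes passed the same limits, 23.3% higher and 19.5% lower. The share among the chromatin genes, 44.7%, was close to that background, so the number of changed genes was not itself a result about them. Their median log2 fold change was -0.26, with 26 values negative and 12 positive, against 0.01 over all tested genes. In 35 of 38 genes the parental and LNCaP-enzaR libraries did not overlap, a larger share than the 70.6% of all tested genes. The chromatin genes were also more abundant, with a median of 74.4 CPM against 8.19 CPM over all tested genes. Whether the larger share went with this abundance was not tested. Upper-quartile scaling, which moved the median of all genes by 0.10 on the log2 scale, gave 8 higher and 7 lower in place of 7 and 10. Without LNCaP-enzaR replicate 1 the total was 16 in place of 17, and without the mitochondrial genes it was 17.

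**Figure D1:**
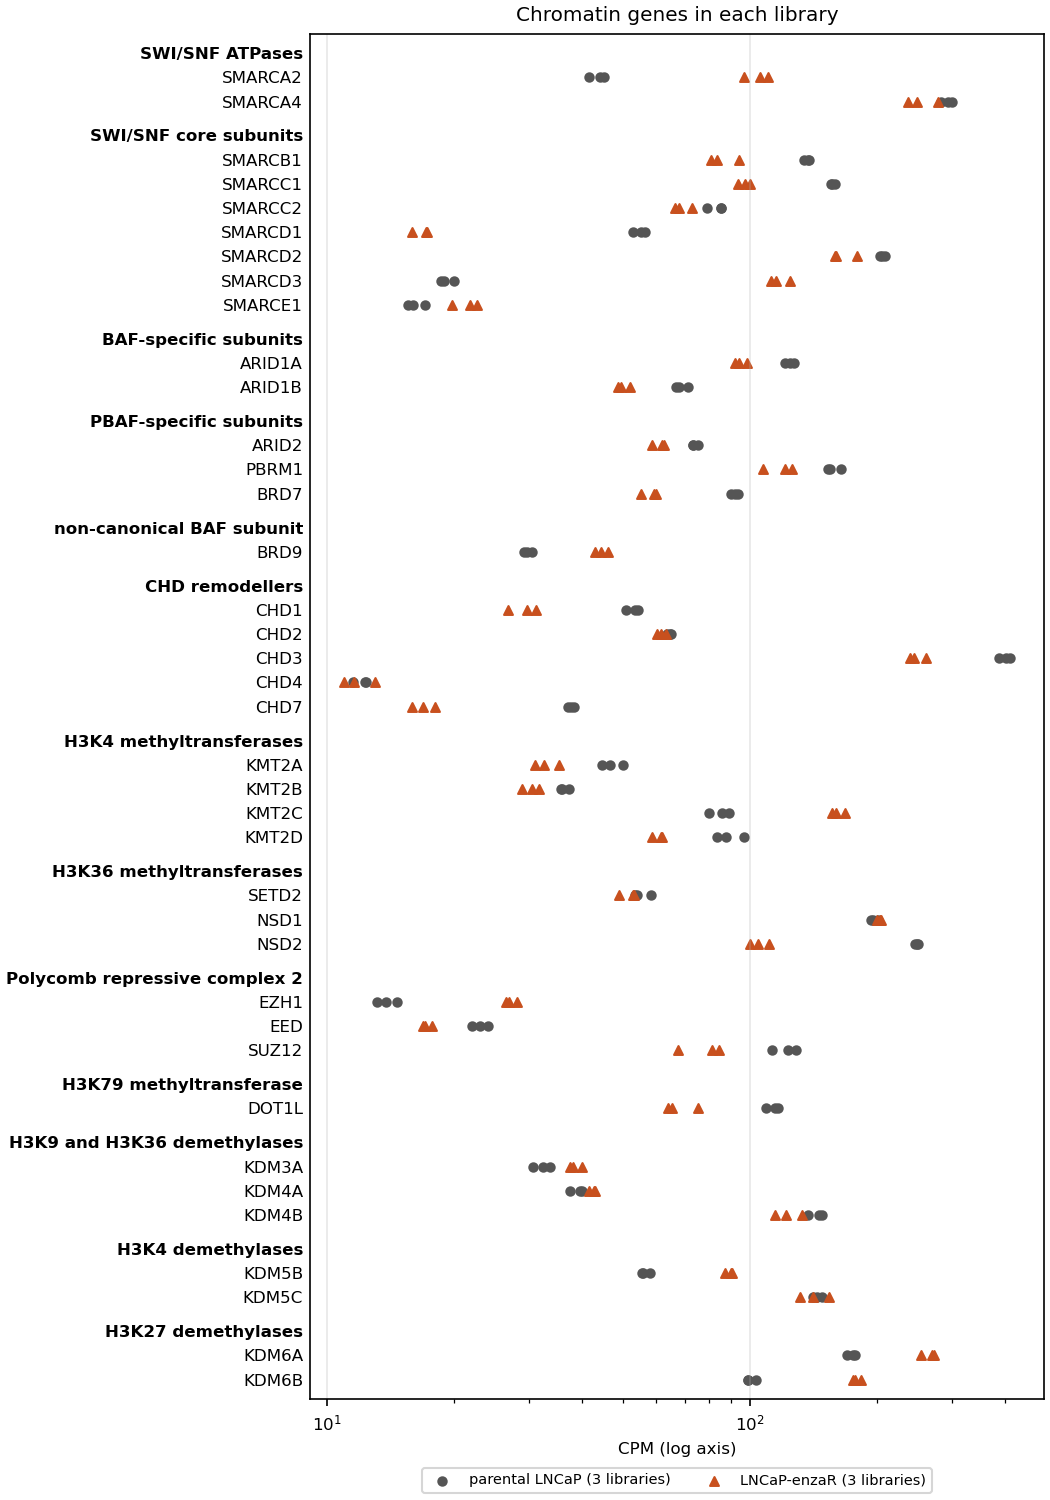
CPM of each gene in each library on a log axis, with genes grouped by complex, circles for 3 parental LNCaP and triangles for 3 LNCaP-enzaR libraries. SMARCD3 and SMARCD1 exchange sides with wide gaps, whereas the libraries of the lines overlap only for CHD4, NSD1 and KDM5C.

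The highest and the lowest log2 fold change of these genes lay within 1 position of the SWI/SNF core. SMARCD1, SMARCD2 and SMARCD3 encode the BAF60 proteins, of which a complex takes up 1, and which link the complex to transcription factors. SMARCD3 rose 6.11-fold and SMARCD1 fell 3.27-fold in LNCaP-enzaR. SMARCD3 (chr7:151238764-151277896, minus strand, GRCh38) had 18.9, 20.0 and 18.6 CPM in parental replicates 1 to 3 and 124, 112 and 115 CPM in LNCaP-enzaR replicates 1 to 3. The lowest resistant library was thus far above the highest parental one. On the log2 scale the difference was 2.61 (SE 0.066, edgeR adjusted p = 3.51e-13). SMARCD1 (chr12:50085200-50100707, plus strand) had 55.2, 56.6 and 53.0 CPM in parental cells and 17.2, 17.2 and 15.9 CPM in LNCaP-enzaR. All resistant libraries were below all parental ones, and the log2 fold change was -1.71 (SE 0.066, edgeR adjusted p = 2.33e-11). SMARCD2 had 206 ± 2.86 CPM in the parental and 166 ± 11.5 CPM in the resistant libraries (mean ± SD of 3, as throughout), a log2 difference of -0.31 that was under the fold limit.

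Set per exonic length, the balance of the BAF60 genes differed between the lines. SMARCD3 made up 7.80% ± 0.264 of the SMARCD counts per exonic kb in the parental line and 43.0% ± 0.612 in the resistant line. SMARCD1 made up 22.4% ± 0.705 and 6.20% ± 0.336, and SMARCD2, the most abundant in both lines, 69.8% ± 0.942 and 50.8% ± 0.584. The ratio of SMARCD3 to SMARCD1 was 0.341, 0.353 and 0.350 in the parental libraries and 7.17, 6.49 and 7.22 in the resistant ones, 20.0-fold apart. This ratio is taken within a library and does not depend on how libraries were scaled. A two-sided exact permutation test gave p = 0.1, the smallest that 3 against 3 libraries can reach. By the canonical transcript length in place of all exons, SMARCD3 took 9.12% of SMARCD counts in the parental and 45.9% in the resistant line, so the order of the genes was the same by either length. Exons of other genes covered 28.4% of the exonic bases of SMARCD3. The neighbouring gene CHPF2 had the largest overlap and a log2 fold change of 0.34.

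**Figure D2:**
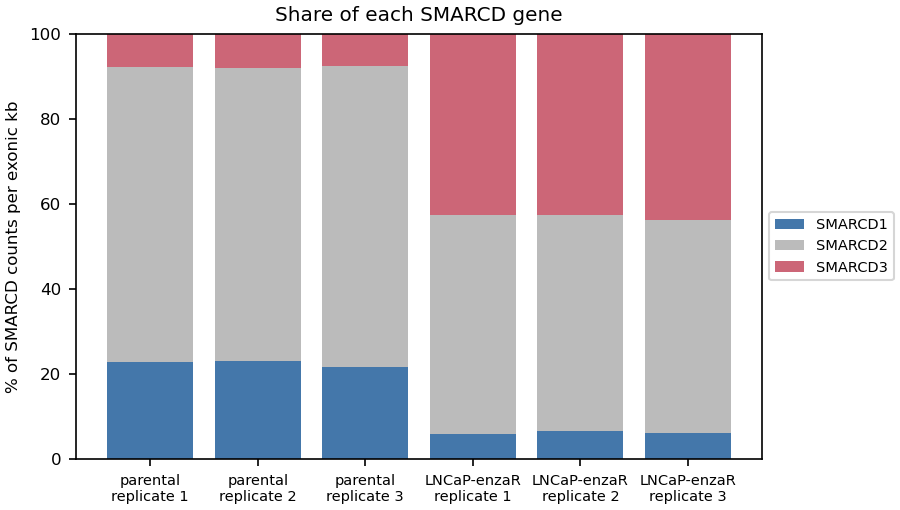
Share of SMARCD1, SMARCD2 and SMARCD3 in the summed SMARCD counts per exonic kb, in percent, as 1 stacked bar for each of the 6 libraries. SMARCD3 takes 7.56% to 8.08% in the parental libraries and 42.7% to 43.7% in the LNCaP-enzaR libraries.

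The counts of the ATPase genes also shifted toward the less abundant paralog. These are RNA counts and do not show which paralog the assembled complexes held, here or for the BAF60 genes. SMARCA2 (BRM) and SMARCA4 (BRG1) are the alternative motors of SWI/SNF. SMARCA2 had 41.5, 44.1 and 45.1 CPM in the parental libraries and 96.7, 110.0 and 106 CPM in the resistant ones. It rose without overlap between the lines, and its log2 fold change was 1.26 (SE 0.065, edgeR adjusted p = 4.80e-10). SMARCA4 had 292 ± 8.75 CPM in parental cells and 254 ± 21.4 CPM in LNCaP-enzaR, a log2 difference of -0.20 (SE 0.063). The lowest parental library, at 282 CPM, was only just above the highest resistant one, replicate 1 at 277 CPM. Per exonic kb, SMARCA2 supplied 10.9% ± 0.120 of the ATPase counts in the parental and 25.2% ± 2.77 in the resistant line, so SMARCA4 was the more abundant in both.

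Among the other shared subunits SMARCB1 and SMARCC1 fell and no gene rose. SMARCB1 (SNF5 or BAF47), which anchors the complex to the nucleosome and is lost in rhabdoid tumours, fell from 134, 138 and 137 CPM to 94.2, 81.0 and 83.6 CPM. Its log2 fold change was -0.66 (SE 0.063, edgeR adjusted p = 3.71e-07). SMARCC1 (BAF155), a scaffold of the core, fell from 155, 156 and 159 CPM to 93.6, 97.0 and 100.02 CPM. For both genes every resistant library was below every parental one, and for SMARCC1 the log2 fold change was -0.69 (SE 0.053). Its paralog SMARCC2 (BAF170) differed by -0.27 and so gained share, from 30.7% ± 0.768 to 37.2% ± 1.78 of the SMARCC counts per exonic kb. SMARCE1 (BAF57), a subunit that binds DNA, differed by 0.40 and stayed under the fold limit. In SMARCE1, 18.9% of exonic bases were shared with other genes. The gene with the largest overlap was a readthrough gene with only 1 to 7 counts in a library.

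Subunits that tell the assemblies apart mostly had smaller differences. ARID1A and ARID1B, the large DNA-binding subunits of BAF, had log2 differences of -0.39 and -0.46, and ARID2 and PBRM1 of PBAF had -0.28 and -0.41. All were under the fold limit while their libraries did not overlap between the lines. BRD7, the bromodomain subunit of PBAF, fell from 93.9, 91.9 and 90.3 CPM to 55.1, 59.4 and 60.1 CPM. Its log2 fold change was -0.66 (SE 0.058, edgeR adjusted p = 1.50e-07). Exons of other genes covered 41.9% of its exonic bases. ADCY7, the gene with the largest overlap, had a log2 fold change of 2.28 at a mean of 3.61 CPM. BRD9, the bromodomain subunit of non-canonical BAF, had 30.6, 29.2 and 29.8 CPM in parental cells and 46.2, 44.5 and 43.1 CPM in LNCaP-enzaR. The sign was opposite to that of BRD7, but the fold of 1.49 (log2 0.58) was just under the limit, and it passed in 7 of 15 alternative analyses. Of the 15 SWI/SNF subunits, 2 rose, 4 fell and 9 were under the limit, with a median log2 fold change of -0.31. The share that passed, 40%, was close to the 42.7% of all tested genes.

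**Figure D3:**
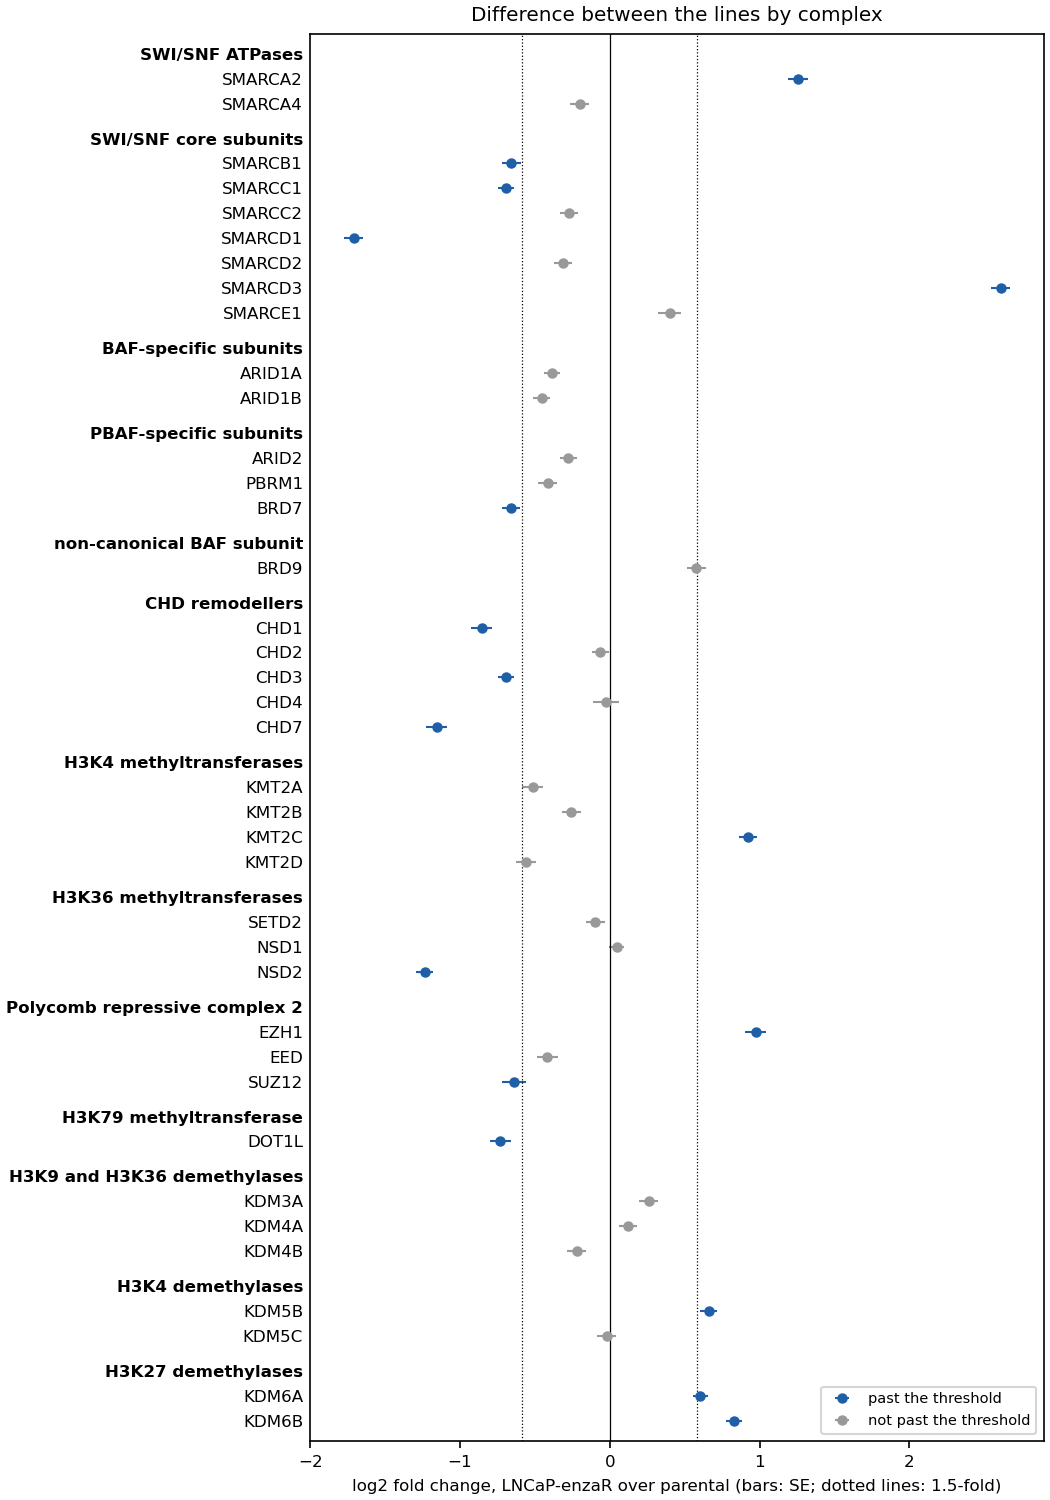
Log2 fold change of each gene, LNCaP-enzaR over parental, with SE bars and dotted lines at 1.5-fold, blue where past the threshold. Values run from -1.71 for SMARCD1 to 2.61 for SMARCD3, and the 5 CHD genes shown run from -1.16 to -0.03.

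Of the 5 CHD remodellers 3 fell and none rose, where 42.7% of all tested genes passed the same limits. CHD7, which acts at enhancers and is mutated in CHARGE syndrome, fell most, from 38.3, 37.2 and 37.7 CPM to 15.9, 16.8 and 18.04 CPM. Its log2 fold change was -1.16 (SE 0.069, edgeR adjusted p = 2.31e-09). CHD1, which binds methylated lysine 4 of histone H3 and is deleted in a subset of prostate cancers, fell from 54.2, 50.9 and 53.6 CPM to 26.8, 29.8 and 31.2 CPM. The libraries of the lines were again fully separate, with a log2 fold change of -0.85 (SE 0.070). CHD3, a motor of the NuRD complex that couples remodelling to histone deacetylation, fell from 387, 403 and 412 CPM to 259.8, 239 and 244 CPM (log2 fold change -0.70, SE 0.054). CHD2, a relative of CHD1, had 64.5 ± 0.649 and 61.8 ± 1.55 CPM, a log2 difference of -0.06 (edgeR adjusted p = 0.340). CHD4, the alternative motor of NuRD, was low in this table at 10.95 to 13.03 CPM, with overlapping groups and a log2 difference of -0.03. Exons of other genes covered 53.5% of its exonic bases. The largest overlap was with a readthrough gene that had no row in the count table. The level of CHD4 and any ratio to it are therefore uncertain.

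Among histone methyltransferase genes, 2 rose, 3 fell and 6 did not pass the threshold. The share that passed, 45.5%, was close to the 42.7% of all tested genes. KMT2C and KMT2D (MLL3 and MLL4) place the monomethyl mark on lysine 4 at enhancers. KMT2C rose from 89.2, 80.0 and 85.9 CPM to 156, 159.7 and 168 CPM, and its log2 fold change was 0.92 (SE 0.059, edgeR adjusted p = 4.91e-09). KMT2D had 89.4 ± 6.69 CPM in parental cells and 60.7 ± 1.74 CPM in LNCaP-enzaR, a log2 difference of -0.56 just under the limit. The libraries of the lines did not overlap for either gene, and the ratio of KMT2C to KMT2D per exonic kb went from 0.455 ± 0.0307 to 1.27 ± 0.0548. By canonical transcript length it went from 1.17 to 3.25, so the change was the same but the order of the genes in parental cells depended on the length used. KMT2A and KMT2B, which act mainly at promoters, had log2 differences of -0.51 and -0.26.

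For lysine 36, NSD2 fell and its paralog NSD1 did not pass the test. NSD2 (MMSET; chr4:1871393-1982207, plus strand) adds dimethyl marks over gene bodies and is overexpressed in myeloma with a translocation at its locus. It had 248, 249.5 and 245 CPM in parental cells and 99.8, 105 and 111 CPM in LNCaP-enzaR. The gap was wide against the spread, and the log2 fold change was -1.24 (SE 0.055, edgeR adjusted p = 1.04e-10). NSD1 had 195, 193 and 200.1 CPM in parental cells and 203, 199.8 and 204 CPM in resistant cells, which overlapped (log2 difference 0.05). NSD2 exceeded NSD1 per exonic kb in parental cells, with a ratio of 1.35 ± 0.0375, and fell short of it in LNCaP-enzaR at 0.556 ± 0.0267. The switch in order held with canonical transcript lengths, at 2.18 and 0.895. SETD2, the enzyme of trimethylated lysine 36, had a log2 difference of -0.10 (edgeR adjusted p = 0.196).

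Polycomb repressive complex 2 methylates lysine 27 and holds genes silent. Its catalytic paralog EZH1, which is typical of resting cells, rose from 14.6, 13.2 and 13.8 CPM to 28.2, 26.5 and 26.96 CPM (log2 fold change 0.97, SE 0.072, edgeR adjusted p = 2.31e-08). EZH2, the other catalytic paralog, was not among the listed genes. SUZ12, a core subunit that the complex needs for stability, fell from 128, 123 and 113 CPM to 67.6, 84.2 and 81.2 CPM. The lowest SUZ12 value belonged to LNCaP-enzaR replicate 1, and the log2 fold change of -0.64 (SE 0.079) became -0.54, under the fold limit, without that library. EED, which reads the mark that the complex leaves, had a log2 difference of -0.42. DOT1L, the enzyme for lysine 79 on transcribed genes, fell from 109, 114 and 116 CPM to 75.4, 64.0 and 65.4 CPM (log2 fold change -0.73, SE 0.068). Exons of other genes covered 11.3% of the exonic bases of DOT1L, 17.7% of those of SMARCB1 and 19.3% of those of KMT2A. Part of their reads may thus have been shared or dropped in counting. The gene with the largest overlap with KMT2A had no row in the count table.

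Promoter sequence was read for the chromatin genes to see what those that changed share. Of 38 genes 33 were matched in the table of RefSeq promoters used here (GRCh38.p14), with 50 promoters in all, each from 250 bases before to 50 after the start. An E2F motif, the site of cell cycle factors (TTTGGCGC, TTTCCCGC, TTTGCCGC or TTTCGCGC on either strand), was in 4 of these 50 promoters and in 3.31% of all 35116 promoters. The genes that held it were NSD2, BRD7 and SUZ12, which are 3 of 7 matched genes that fell, and EZH1, 1 of 7 matched genes that rose. A gene counted if any of its promoters held the motif, so these shares are not comparable with the 3.31% of promoters. The sequences are shown because they tie these letters to the genes above, with the motif in capitals, 5′ to 3′ on the strand of the gene, from 200 to 11 bases before the start. They are chr4:1871193-1871382 (plus strand) for NSD2, chr16:50368999-50369188 (minus) for BRD7, chr17:31936807-31936996 (plus) for SUZ12 and chr17:42745051-42745240 (minus) for EZH1.
NSD2: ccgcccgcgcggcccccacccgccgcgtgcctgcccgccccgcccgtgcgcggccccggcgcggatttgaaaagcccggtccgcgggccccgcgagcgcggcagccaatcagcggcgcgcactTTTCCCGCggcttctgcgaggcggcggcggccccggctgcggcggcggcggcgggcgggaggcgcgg
BRD7: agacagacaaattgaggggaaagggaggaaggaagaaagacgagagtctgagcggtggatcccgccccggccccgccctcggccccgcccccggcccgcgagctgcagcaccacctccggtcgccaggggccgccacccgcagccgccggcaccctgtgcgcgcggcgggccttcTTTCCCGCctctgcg
SUZ12: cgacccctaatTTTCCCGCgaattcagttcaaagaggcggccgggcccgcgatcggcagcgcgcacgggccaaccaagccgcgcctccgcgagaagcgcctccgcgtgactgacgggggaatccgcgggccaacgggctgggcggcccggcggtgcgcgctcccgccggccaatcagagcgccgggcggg
EZH1: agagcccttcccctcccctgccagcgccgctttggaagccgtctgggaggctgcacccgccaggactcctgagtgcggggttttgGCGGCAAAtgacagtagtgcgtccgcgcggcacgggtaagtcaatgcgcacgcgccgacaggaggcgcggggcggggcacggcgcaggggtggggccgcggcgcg
The motif began 77, 25 and 189 bases before the start in NSD2, BRD7 and SUZ12, with the same 8 letters in each. In EZH1 it began 115 bases before the start and read on the opposite strand. The hexamer known from steroid receptor sites (AGAACA, either strand) was in 1 of the 50 promoters, that of CHD4, and in 14.8% of all promoters. The core of the hypoxia element (ACGTG) was in 7 of 50 against 21.4% of all, and the E-box (CACGTG, which contains ACGTG) in 5 of 50 against 7.26%. These matches describe letters in a window, not occupied sites.

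Of the 7 demethylases, 3 rose and none fell past the threshold, a share close to the 42.7% of all tested genes, and the median log2 fold change was 0.26. A list of 12 further demethylases had 4 positive and 8 negative values with a median of -0.24. Both erasers of lysine 27 methylation rose. KDM6B (JMJD3), an inducible enzyme, rose from 98.9, 98.9 and 104 CPM to 183, 175 and 177 CPM (log2 fold change 0.83, SE 0.053, edgeR adjusted p = 4.57e-09). KDM6A (UTX), which works in the complexes of KMT2C and KMT2D, rose from 177, 175 and 169.6 CPM to 253, 269.6 and 272 CPM (log2 fold change 0.61, SE 0.053). The 1.52-fold change of KDM6A was close to the limit, and the gene missed it at 0.57 with library totals in place of the scaling factors and at 0.58 without parental replicate 3. KDM5B, a luminal eraser of lysine 4 methylation, rose from 58.1, 55.8 and 55.7 CPM to 87.2, 90.1 and 90.8 CPM (log2 fold change 0.66, SE 0.055). Its paralog KDM5C had overlapping libraries at 144 ± 3.45 and 142 ± 11.2 CPM. KDM3A, KDM4A and KDM4B act on lysine 9, and the KDM4 enzymes also on lysine 36. These known partners of hormone receptors had log2 differences of 0.26, 0.12 and -0.22, in that order. In KDM4A, 48.8% of exonic bases were shared with other genes. The largest overlap was again with a readthrough gene that had no row in the count table.

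Across 13 pairs of paralogs, the balance within a pair was separate between the lines in 12. Single genes were separate in 70.6% of all tested genes, and the share among ratios of other gene pairs was not computed, so the count is a description of these pairs. All 12 had an exact permutation p of 0.1, the smallest this design allows, so none could pass a limit of 0.05. On the log2 scale the ratio moved by 4.32 for SMARCD3 over SMARCD1, by 1.48 for KMT2C over KMT2D, by 1.46 for SMARCA2 over SMARCA4 and by -1.28 for NSD2 over NSD1. SMARCD2 over SMARCD1 moved by 1.397, CHD2 over CHD1 by 0.79 and KDM5B over KDM5C by 0.69. Among the pairs named so far, both genes were past the threshold only for SMARCD3 and SMARCD1, and 1 gene in each other pair. The remaining separate pairs moved less, by -0.67 for CHD3 over CHD4, 0.42 for SMARCC2 over SMARCC1, -0.34 for KDM4B over KDM4A, 0.26 for KMT2B over KMT2A and 0.22 for KDM6B over KDM6A. ARID1B over ARID1A was the pair with overlapping libraries, at a difference of -0.07 (exact permutation p = 0.3).

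**Figure D4:**
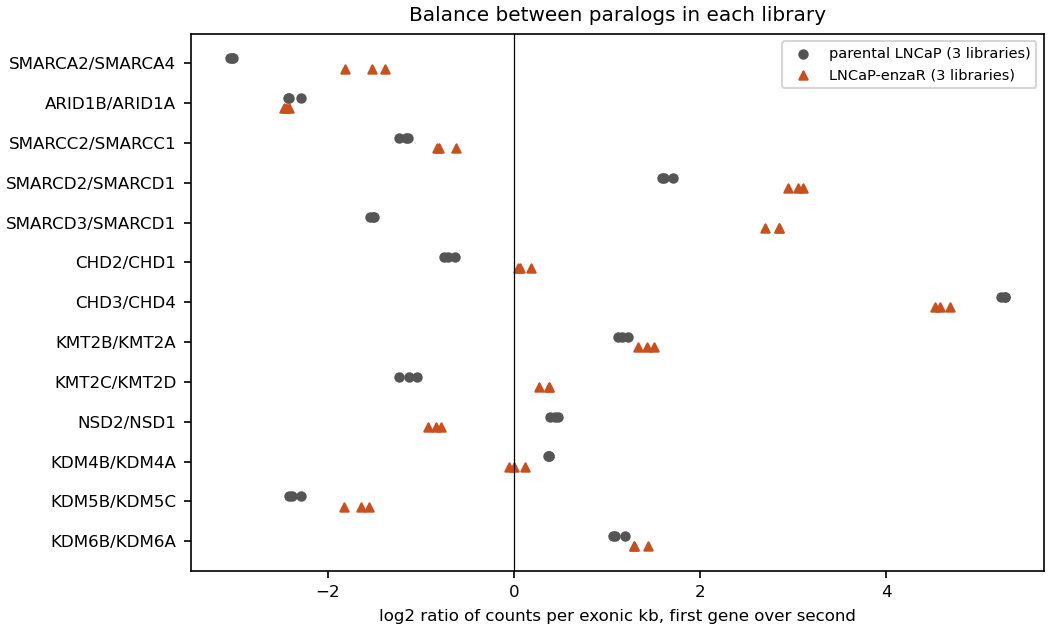
Log2 ratio of counts per exonic kb between paralogs, first gene over second, in each library, with circles for parental LNCaP and triangles for LNCaP-enzaR. The ratio of SMARCD3 to SMARCD1 crosses 0 with a difference of 4.32, and the libraries overlap only for ARID1B over ARID1A.

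Most partner genes of the same complexes, 59 of those tested, did not pass the threshold. Of 79 listed partners 77 were tested, and 3 rose and 15 fell, 23.4% in all against the background of 42.7%, with a median log2 fold change of -0.29. Without LNCaP-enzaR replicate 1 the number past the threshold was 21 in place of 18. ACTL6B and BCL11A, which belong to SWI/SNF in neurons and lymphoid or neural cells, had at most 10 and 5 counts in a library and were not tested. Among 13 tested SWI/SNF partners 1 rose and 3 fell. ACTL6A (BAF53A), the actin-like subunit of dividing progenitor cells, fell from 105 ± 4.12 to 40.3 ± 1.71 CPM (log2 fold change -1.39). DPF3 (BAF45C), a histone reader subunit known from muscle and neurons, rose from 0.364 ± 0.0941 to 2.56 ± 0.253 CPM (log2 fold change 2.82), a low level in both lines.

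In each of the partner lists that follow, 13.3% to 29.4% of the tested genes passed, below the 42.7% of all tested genes. In the CHD and NuRD list 1 of 17 rose and 4 fell. The gene that rose, named after its value was seen, was the CHD family member CHD5, at 1.41 ± 0.363 CPM in the parental and 3.04 ± 0.163 CPM in the resistant libraries (log2 fold change 1.10). MTA2 and MBD2, which build NuRD and bring it to methylated DNA, had log2 fold changes of -1.15 and -1.08. Of 13 partners of the lysine 4 methyltransferases none rose and 3 fell, among them PAXIP1 of the KMT2C and KMT2D complexes (-1.25) and PSIP1, a chromatin tether of KMT2A (-1.08). Of 7 accessory subunits of Polycomb repressive complex 2, MTF2 and PHF19 fell and none rose, MTF2 by 0.94 and PHF19 by 0.75 on the log2 scale. SUV39H2 and SUV39H1, the enzymes of heterochromatic lysine 9 trimethylation, fell by 1.80 and 1.51 on the log2 scale and were the only 2 of 15 genes on the list for lysines 9, 36 and 79 to pass. Among 12 further demethylases KDM2B fell (-1.15) and KDM4D rose (0.60, from 2.46 to 3.75 CPM).

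The listed proliferation genes were lower in LNCaP-enzaR. All 6 listed markers of dividing cells had negative log2 fold changes and 5 fell past the threshold, with a median of -1.75. MKI67 had 199 to 219 CPM in parental cells and 36.4 to 40.6 CPM in LNCaP-enzaR. Whether the lower levels of NSD2, SMARCD1, SUZ12, ACTL6A or the SUV39H genes went with the share of dividing cells was not tested. In bulk RNA a change in the share of cells that express a gene and a change per cell cannot be told apart.

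**Figure D5:**
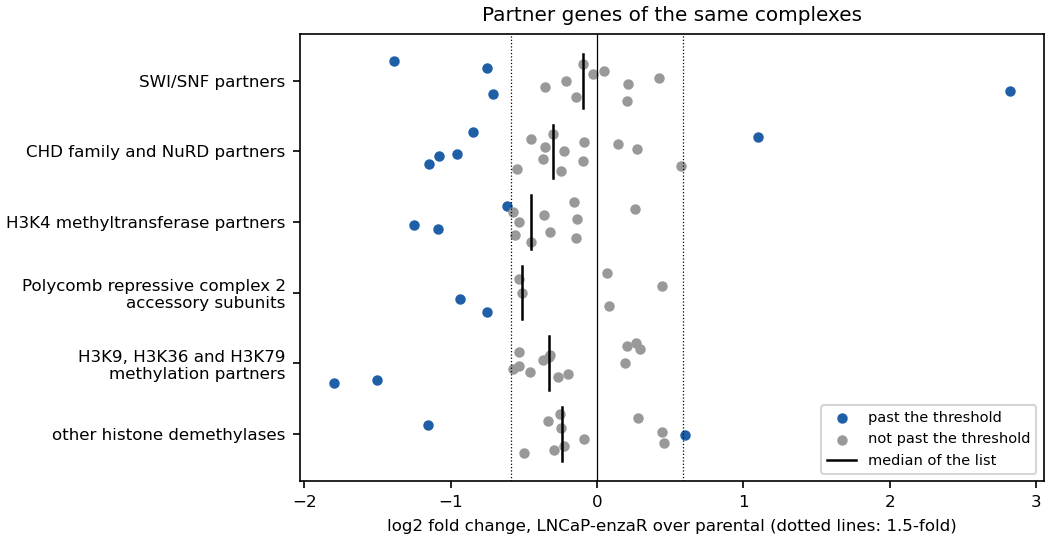
Log2 fold change of each tested partner gene by list, LNCaP-enzaR over parental, with blue points past the threshold, a black bar at the median of each list and dotted lines at 1.5-fold. The medians of all 6 lists lie below 0, and DPF3 stands alone at 2.82.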

How the data were processed

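Polyadenylated RNA of 3 parental LNCaP and 3 LNCaP-enzaR flasks was sequenced as paired-end reads. The authors trimmed with Cutadapt, aligned to GRCh38 with STAR and counted reads per gene with featureCounts, and the deposited table holds these raw counts. The strand setting and the treatment of reads shared between genes or mapping to several places are not stated in the sources used here.

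The lines were compared with edgeR 4.0.16 under R 4.3.3 (filterByExpr, TMM, robust quasi-likelihood F-test, no covariates), which kept 19711 genes. CPM values use TMM-scaled library sizes. The threshold follows the study's methods, whose tool, DESeq2, was run here (1.42.0) as an alternative. GENCODE v44, later than the deposited annotation, gave exon lengths and overlaps only. Paralog ratios are log2 counts per exonic kb, compared by two-sided exact permutation tests. The genes, lists and tests were chosen with earlier results of these data known. All 38 genes are given, those past the threshold library by library, and of each partner list the 2 past the threshold with the smallest p. On simulated counts, 192 of 19204 tested genes were changed by at least 2-fold in either direction. Of these, 83.3% were recovered, and 100% of the 100 with a mean of at least 5 CPM, with 3 false calls. The simulation did not cover folds near the limit of 1.5 or data in which 42.7% of genes pass.

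Alternatives were other scalings, filters and gene sets, DESeq2, a replicate block, leaving out each library, other fold limits, and for the ratios 1 added count and, added after seeing the data, canonical transcript length.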

Additional observations from a re-analysis of the deposited data

How the results depend on the processing

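Of 38 genes, 28 kept their direction and their side of the threshold in all 15 alternative fits, and the number past the threshold was 15 to 18. A limit on the adjusted p alone gave 32 of the chromatin genes (22 lower), 62 partners and 13074 genes in all, and a fold of at least 2 gave 5 (2 higher, 3 lower), 10 and 5561, since these settings change only the fold limit. Upper-quartile scaling turned CHD2 (0.038), CHD4 (0.075), SETD2 (0.0047) and KDM5C (0.079), none past the threshold, and took SMARCB1, BRD7 and SUZ12 below the fold limit. KDM5C was also positive with a minimum of 10 counts per library (0.00073) and among protein-coding genes (0.00057). Leaving out each library in turn gave 16 to 18 of the chromatin genes, CHD4 at -0.091 to 0.034 and KDM5C at -0.074 to 0.034. KMT2D passed with library totals (-0.59) and without parental replicate 2 (-0.61). The alternatives tried for the paralog ratios could hardly turn their direction, since 12 of 13 pairs had separate libraries and a change of length shifts both lines alike. The replicate block called 17 of the chromatin genes and 8212 genes, 8174 of them shared. Same-numbered libraries had deviations correlated at -0.34, 0.016 and -0.21, so the numbers did not pair them. With 3 libraries a line, the sign-flip test of the paired ratios could not go below an exact p of 0.25. None of these genes had fewer than 966 counts in a library.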

Other observations

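SMARCD3 and KMT2C, which both rose, lie on chromosome 7 less than 1 megabase apart. The 10 nearest tested genes on either side had a median log2 fold change of 0.27 for SMARCD3, with 5 of 20 higher and 1 lower past the threshold, and of 0.30 for KMT2C, with 5 higher and 3 lower. Over all tested genes 23.3% passed higher and 19.5% lower, so 5 higher of 20 was close to the background. The neighbours of SMARCD1, at 0.24, did not share the direction of that gene. Across the 38 genes, the median of the neighbours and the gene's own log2 fold change had a Pearson correlation of 0.32, given as a description, since some genes share neighbours.

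The chromatin genes were long, with canonical transcripts of 1907 to 20635 bases and a median of 6423, against 2566 over all tested genes. Of the 38 genes, 17 were among the 1968 longest tested genes (6829 bases or more), where the median log2 fold change was -0.41 for those 17 and -0.02 for all.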
